A study of Mus musculus with 444 samples.

Results

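Itih2, Crym, Upk3a, S100a14 and Capsl are the 5 genes described here, out of 27179 gene identifiers counted in every cell and 25139 genes kept after filtering. All 5 were listed by name and matched through their Entrez identifiers. They were picked from an earlier reading of the same cells, because they were read as high in pubertal luminal cells, so their levels by stage and in cells with Prlr, Cited1 or Prom1 chose them and are given as a description. All cells are mammary total epithelium of inbred FVB/NJ mice, with no transgene or treatment in the labels, at stages labeled Puberty (221 cells) and Adult (223 cells). The methods of the study describe epithelial cells sorted from several female mice per sort after removal of endothelial and blood cells, captured singly on the Fluidigm C1, a microfluidic device, and converted to cDNA from polyadenylated RNA. No animal, sort or capture run is named for a cell, so each stage stands as 1 sample, the cells are not replicates, no test was possible and no stage difference below has a replicate check.

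Luminal cells line the mammary ducts and basal cells surround them. Mature luminal cells carry the receptors for estrogen, progesterone and prolactin and pass hormone signals to their neighbors through secreted factors such as amphiregulin, and at puberty these signals drive the growth and branching of the ducts. Prlr encodes the prolactin receptor, Cited1 a transcriptional coregulator that works with the estrogen receptor, and Prom1 a membrane glycoprotein used to mark hormone receptor-positive luminal cells. The 5 genes act in different places. Itih2 encodes a heavy chain of the inter-alpha-trypsin inhibitor, a secreted protein that is transferred onto hyaluronan in the extracellular matrix. Crym encodes mu-crystallin, a cytosolic protein that binds thyroid hormone. Upk3a encodes a uroplakin, a membrane protein best known from the surface plaques of the bladder lining. S100a14 and Capsl encode small proteins with calcium-binding EF-hand motifs, S100a14 of the S100 family and Capsl related to calcyphosine.

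The genes lie apart from each other in the mouse genome (build GRCm38.p6, RefSeq annotation). Itih2 spans chr2:10094591-10130683, Crym chr7:120186380-120201989, Upk3a chr15:85017141-85022560, S100a14 chr3:90526849-90528837 and Capsl chr15:9436016-9466039. Counts cover the exons of each gene. RefSeq places another gene, Gm52194, over Upk3a, and it has no count of its own here. No other annotated gene overlaps the remaining 4.

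RefSeq sequence ahead of the start site was at hand for 3 of the 5 genes, and it is printed because these genes were detected in the same pubertal cells. Each line holds the 250 bases before the annotated start, 5′ to 3′ on the strand of the gene: for Itih2 chr2:10130684-10130933 on the minus strand, for Upk3a chr15:85016891-85017140 and for Capsl chr15:9435778-9436027, both on the plus strand, where the start used for Capsl lies just inside the span given above. Capitals mark matches on either strand to the motifs searched, which were the TATA box as TATAAA, the CCAAT box as CCAAT, the GC box as GGGCGG, a forkhead motif as TGTTTAC, a motif of the GATA factors as AGATAA, a core motif of nuclear receptors as AGGTCA, and the palindromic estrogen response element. The element can overlap the core motif, since it holds most of its letters.
Itih2: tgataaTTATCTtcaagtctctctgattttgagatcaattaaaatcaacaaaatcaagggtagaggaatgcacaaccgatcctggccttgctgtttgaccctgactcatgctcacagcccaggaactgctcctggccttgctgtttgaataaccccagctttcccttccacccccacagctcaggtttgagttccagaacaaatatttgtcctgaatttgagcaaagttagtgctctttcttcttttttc
Upk3a: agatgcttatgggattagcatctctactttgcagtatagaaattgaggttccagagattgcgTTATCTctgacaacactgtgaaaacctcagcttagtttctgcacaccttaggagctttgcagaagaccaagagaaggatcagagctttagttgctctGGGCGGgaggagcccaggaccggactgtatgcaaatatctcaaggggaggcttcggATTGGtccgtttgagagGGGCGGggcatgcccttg
Capsl: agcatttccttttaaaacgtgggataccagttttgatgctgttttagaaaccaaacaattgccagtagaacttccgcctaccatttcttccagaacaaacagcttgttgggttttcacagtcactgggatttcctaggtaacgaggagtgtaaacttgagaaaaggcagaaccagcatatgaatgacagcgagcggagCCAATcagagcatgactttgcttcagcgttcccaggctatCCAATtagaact
Itih2 held 1 match, to the GATA motif on the opposite strand. Upk3a held 2 GC boxes, 1 CCAAT box and 1 GATA motif, and Capsl held 2 CCAAT boxes. Neither the TATA box nor the forkhead motif nor the nuclear receptor core motif nor the full element was found in these 3 windows. Of all 32851 promoter windows of this length, 33.8% held the CCAAT box, 32.7% the GC box, 14.0% the nuclear receptor core motif, 12.4% the TATA box, 9.99% the GATA motif, 3.17% the forkhead motif and 0.0639% the full element. No motif was common to the 3 windows, and a match describes the letters only.

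A cell was retained when it had at least 100000 read pairs on the kept genes and at least 1500 genes detected. This left 171 pubertal cells (77.4%) and 152 adult cells (68.2%), with 101473 to 1354393 read pairs per pubertal cell (median 309943) and 100889 to 1049772 per adult cell (median 331052). To compare cells at 1 depth, each was thinned to 100000 read pairs. Levels of a group are sums of these thinned counts in CPM, counts scaled to a common library total, with exact Poisson 95% intervals, and a gene counts as detected in a cell at 1 read or more, that is 10 CPM. Shares carry exact Clopper-Pearson 95% intervals. Amplification copies were not removed, so all intervals cover counting error only. Values quoted for a named cell are unthinned CPM.

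The adult cells do not form an even group. Cells with title numbers 48 to 188 were set apart in an earlier reading of these data because of Rn7sk, a small nuclear RNA, which reached 10 CPM in 96.3% of the 107 retained cells in that range, in 2.22% of the other 45 adult cells and in 9.94% of pubertal cells. The labels name no run for them. The 2 ranges also differed in lineage markers: Krt14, a basal keratin, reached 50 CPM in 81.3% of adult cells 48 to 188 and in 44.4% of the other adult cells, against 32.7% of pubertal cells. Myh11, a smooth muscle myosin of basal cells, reached it in 86.0%, 46.7% and 27.5%. Stage and these differences cannot be told apart, so the stage ratios of the 5 genes and of the gene lists are given against both adult ranges as well as against all adult cells.

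Itih2, Crym, Upk3a and S100a14 were all higher at puberty, and Capsl was not. Over all retained cells the level of Itih2 was 289 CPM at puberty (281 to 297), against 9.01 CPM in the adult cells (7.57 to 10.7), which gives a log2 ratio of 5.00 (4.76 to 5.26). Upk3a stood at 629 CPM (617 to 641) against 39.2 CPM (36.1 to 42.5), a log2 ratio of 4.00 (3.89 to 4.13). For Crym the levels were 301 CPM (293 to 309.8) and 21.8 CPM (19.6 to 24.3), a log2 ratio of 3.79 (3.63 to 3.95). The intervals of the stages lay apart for each of these genes, but they cover counting error alone. As the genes were chosen for this difference, the gap is not read as support for it. S100a14 had the lowest pubertal level in CPM, at 71.2 CPM (67.3 to 75.3) and 5.33 CPM (4.23 to 6.62), with a log2 ratio of 3.74 (3.42 to 4.08). Capsl goes against the reading under which it was chosen: its level was 285 CPM in pubertal cells (277 to 293) but 331 CPM in adult cells (322 to 340.1), for a log2 ratio of -0.22 (-0.27 to -0.16). The median log2 ratio over the 5 genes was 3.79, beside 0.09 over all 7800 genes that reached 20 CPM in either stage. Of those genes 20.2% were at least 2-fold higher at puberty and 14.8% at least 2-fold lower. Of the 5 genes 4 were past 2-fold toward puberty and 0 toward the adult, counts that the choice of the genes fixes.

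The shares of cells with a gene differed in the same direction. Itih2 was detected in 40.9% of pubertal cells (70 of 171, interval 33.5 to 48.7%), beside 9.21% in the adult (14 of 152, interval 5.13 to 15.0%). Crym was seen in 74 pubertal cells (43.3%) and 13 adult cells (8.55%), Upk3a in 64 (37.4%) and 5 (3.29%), and S100a14 in 73 (42.7%) and 10 (6.58%). The share for Capsl was 45.0% at puberty (77 cells, interval 37.4 to 52.8%) and 44.1% in the adult (67 cells, interval 36.0 to 52.4%), and these intervals overlapped. Cells with Cited1 at 50 CPM or more made up 52.0% of pubertal and 21.1% of adult cells, and their part in the stage ratios is taken up with the Cited1 cells. In the pubertal cells each gene ran from 0 to a high level, with a median at 0 for 4 genes and at 1.36 CPM for Capsl. The upper quartile was 217 CPM for Itih2, 214 CPM for Crym, 287 CPM for Upk3a, 33.2 CPM for S100a14 and 217 CPM for Capsl. The highest pubertal cell of each gene reached 3892 CPM for Itih2, 5207 CPM for Crym, 8743 CPM for Upk3a, 1521 CPM for S100a14 and 4397 CPM for Capsl. No pubertal cell held more than 12.5% of the summed level of any of the 5 genes.

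**Figure D1:**
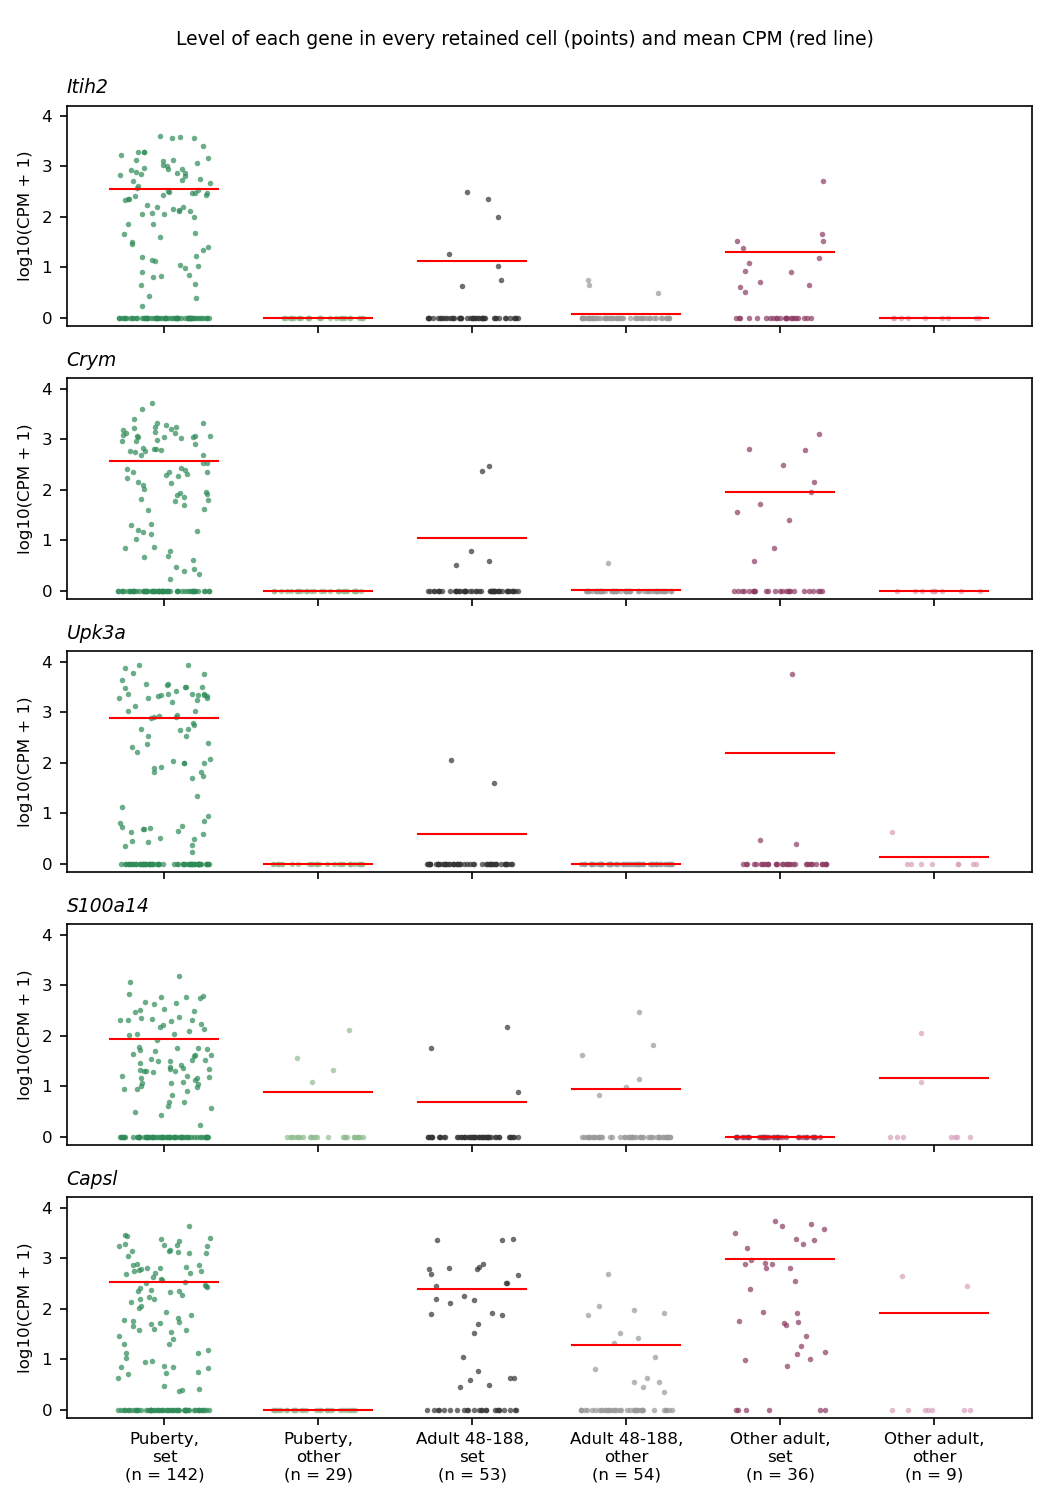
Level of each gene in every retained cell as log10(CPM + 1), unthinned, with pubertal and adult cells split into those with Prlr, Cited1 or Prom1 at 50 CPM or more (set) and the rest (other), and adult cells split by title number. Points are cells and red lines are the log10 of the mean CPM plus 1. Itih2, Crym and Upk3a are at 0 in many pubertal set cells and high in many others, and are sparse elsewhere, a single adult cell carries Upk3a above 1000 CPM, and Capsl is high in many set cells of both stages.

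The choice of adult cells moved these ratios more than counting error did. Against adult cells 48 to 188 the log2 ratio was 9.40 for Upk3a (8.52 to 10.46), 6.07 for Crym (5.66 to 6.51) and 5.57 for Itih2 (5.22 to 5.95). Against the other adult cells it was 2.27 for Upk3a (2.15 to 2.40), 2.26 for Crym (2.08 to 2.43) and 4.17 for Itih2 (3.84 to 4.53). S100a14 went the other way, with 3.42 (3.08 to 3.79) against cells 48 to 188 and 5.00 (4.12 to 6.07) against the others. Capsl changed sign, from 1.11 (1.03 to 1.20) to -1.50 (-1.56 to -1.43). Of all genes that reached 20 CPM, 26.2% were at least 2-fold higher and 16.1% at least 2-fold lower at puberty against cells 48 to 188, and 28.7% and 20.6% against the other adult cells. Single cells set several of the ratios against the other adult cells: cell 19 held 99.9% of their Upk3a, cell 208 held 73.4% of their Itih2 and cell 31 held 91.2% of their S100a14. Without the highest adult cell of each gene, an alternative added after seeing the data, the ratio against the other adult cells was 10.44 for Upk3a (8.58 to 13.48), on 2 adult reads. It was then 6.06 for Itih2 (5.42 to 6.80), 3.03 for Crym (2.81 to 3.27) and 8.29 for S100a14 (5.81 to 13.60), the last on 1 adult read. The same alternative against cells 48 to 188 gave 11.70 for Upk3a (9.85 to 14.75, on 2 adult reads), 6.29 for Itih2, 7.25 for Crym and 4.31 for S100a14. Itih2, Crym, Upk3a and S100a14 were higher at puberty against either adult range. Leaving out the highest adult cell can only raise a ratio, so it could not have turned their direction. For Capsl the direction depended on the range, with 1.37 and -1.29 without its highest adult cell.

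**Figure D2:**
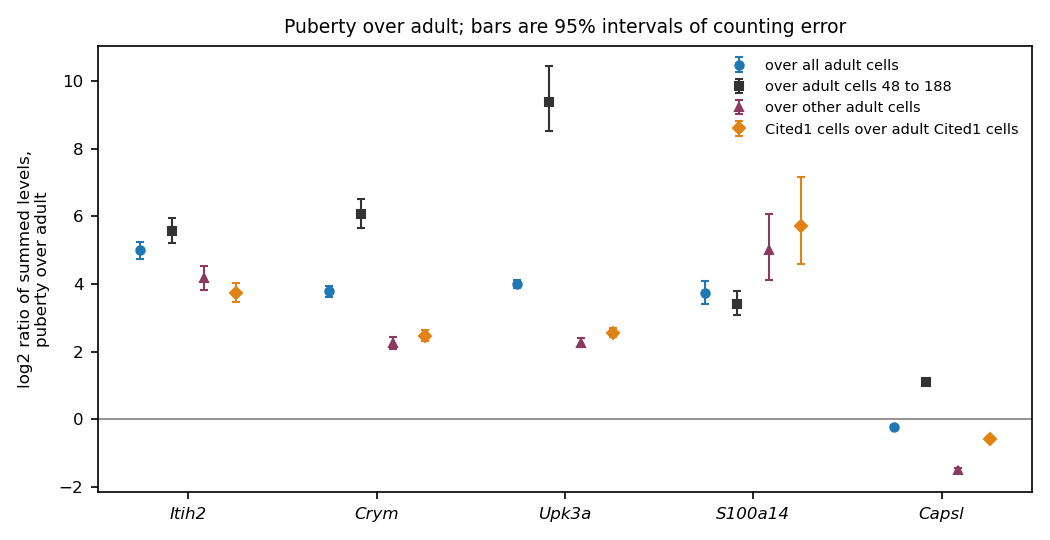
Log2 ratio of summed thinned levels, puberty over adult, for each gene against all adult cells, adult cells 48 to 188, the other adult cells, and between cells with Cited1 at 50 CPM or more. Bars are exact 95% intervals of counting error; the ratios of Itih2, Crym, Upk3a and S100a14 lie above 0 in all 4 comparisons, and those of Capsl lie on both sides of it.

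In the adult, a handful of cells held most of what was seen. Of the summed adult level of Upk3a, 97.2% came from adult cell 19, which had 5584 CPM, and the next adult cell had 113 CPM. The same cell had the highest Crym of the adult cells, 1266 CPM, with Capsl at 1611 CPM, Prlr at 11104 CPM and Cited1 at 6146 CPM, but no read of Itih2 or S100a14. Adult cell 208 gave 37.4% of adult Itih2, with 513 CPM, and also had Crym at 89.9 CPM, Capsl at 645 CPM and Myh11 at 1380 CPM. For S100a14 the highest adult cell was cell 180, with 295 CPM. That cell had no read of the other 4 genes or of Cited1, and carried Krt14 at 1059.5 CPM and Myh11 at 1086 CPM. Leaving out the highest cell of each gene in each stage, an alternative setting, gave a median log2 ratio of 4.30 over the 5 genes and of 9.52 for Upk3a.

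Per length of transcript, which allows genes to be set beside each other, Upk3a was the most abundant of the 5 at puberty with 569 RPKM, which is CPM divided by the exon length in kilobases. Capsl followed at 301 RPKM, Crym at 240.0 RPKM, Itih2 at 92.4 RPKM and S100a14 at 64.9 RPKM. For scale, Cited1 stood at 642 RPKM and Prlr at 176 RPKM. In the adult the order was Capsl at 349.7 RPKM, Upk3a at 35.5 RPKM, Crym at 17.4 RPKM, S100a14 at 4.86 RPKM and Itih2 at 2.89 RPKM. The lower quartile over cells was 0 CPM for all 5 genes in both stages, so neighbors in either order overlapped over cells.

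The set of cells with Prlr, Cited1 or Prom1 at 50 CPM or more was broad. It took in 142 of 171 pubertal cells and 89 of 152 adult cells, 53 of 107 in the range 48 to 188 and 36 of 45 among the others, and 47 of the pubertal and 51 of the adult set cells entered through Prlr alone. Luminal keratin Krt8 reached 50 CPM in 92.3% of the pubertal and 88.8% of the adult set cells, but so did basal Krt14 in 28.2% and 57.3%. The progenitor gene Elf5, a luminal transcription factor, reached it in 4.93% and 1.12%. The set is therefore called by its 3 genes and not by a cell type.

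Within the pubertal cells the reads of Itih2, Crym, Upk3a and Capsl came from this set. None of the 4 had a read in any of the 29 pubertal cells outside it, before or after thinning, where 0 of 29 cells allows a share of up to 10.3% by 3 counts of the total and of up to 11.9% by the exact interval. In the set Itih2 reached 348 CPM (338 to 357), Crym 363 CPM (353 to 373), Upk3a 758 CPM (744 to 772) and Capsl 343 CPM (333 to 353). Taking 3 counts over the 29 cells as the floor, these levels were at least 336-fold, 351-fold, 733-fold and 332-fold higher than outside. S100a14 was detected in 69 of 142 set cells (48.6%) and in 4 of 29 others (13.8%, 3.89 to 31.7%), at 84.4 CPM and 6.55 CPM, a log2 ratio of 3.69 (3.04 to 4.43). Of the 7891 genes that reached 20 CPM on either side 28.6% were at least 2-fold higher in the set, beside all 5 of these genes, which were chosen with this split. The median log2 ratio of the 5 genes was 8.39, with 4 of them at their bound, and that of all genes was 0.08.

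Just above the threshold Itih2, Crym, Upk3a and Capsl were low. The best of the 3 markers lay between 50 and 100 CPM in 15 pubertal cells, of which 4 had any of the 5 genes at 10 CPM unthinned, and mean levels there were 0.753 CPM for Itih2, 1.49 CPM for Crym, 1.70 CPM for Upk3a, 20.7 CPM for S100a14 and 0.432 CPM for Capsl. Just below it, at 25 to 50 CPM, stood 4 pubertal cells, of which 1 had S100a14 and none had the other genes. In the adult, Capsl averaged 94.8 CPM in the 16 cells just above the threshold, 6 of which had it, and 47.8 CPM in the 12 cells just below it, 2 of which had it.

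The adult cells kept part of this pattern. Of the 7541 genes that reached 20 CPM in adult cells inside or outside the set, 29.3% were at least 2-fold higher inside. Capsl reached that level on both sides. Crym and Upk3a reached it only inside, so that the filter fixed their direction, and Itih2 and S100a14 reached it on neither side. As the genes were chosen with the set, nothing is read from the count. Crym had no thinned read outside the adult set and 37.3 CPM inside it (33.4 to 41.5), which is at least 78.3-fold higher. Upk3a had 66.9 CPM inside and 0.159 CPM outside, the inside level again resting on adult cell 19. Itih2 had 15.3 CPM and 0.159 CPM. Capsl had 546 CPM inside (530.5 to 561) and 27.1 CPM outside (23.2 to 31.5), a log2 ratio of 4.33 (4.11 to 4.56), and 13 of 63 outside cells (20.6%) had it, against 0 of 29 at puberty. S100a14 was lower inside the adult set than outside, at 2.25 CPM (1.37 to 3.47) and 9.68 CPM (7.41 to 12.4), and 7 of its 10 adult carriers were outside. Adult cell 117 held 70.4% of its inside level and adult cell 180 held 53.3% of its outside level. All 10 adult carriers of S100a14 had Krt5, Myh11 or Trp63, genes of basal cells, at 50 CPM or more. Of all 152 adult cells 114 had 1 of these at that level. At puberty 26 of the 73 carriers of S100a14 did.

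Cited1 picked out the carriers more narrowly than Prlr did. Cited1 reached 50 CPM in 89 pubertal cells and 32 adult cells. In the pubertal Cited1 cells Crym was detected in 66 (74.2%, 63.8 to 82.9%) at 567 CPM (552 to 583), Capsl in 65 (73.0%) at 457 CPM, Itih2 in 58 (65.2%) at 491 CPM, S100a14 in 56 (62.9%) at 99.0 CPM and Upk3a in 55 (61.8%) at 1099.5 CPM. In the 52 pubertal cells with Prlr and without Cited1, the shares were 15.4% for Crym, 23.1% for Capsl, 23.1% for Itih2, 25.0% for S100a14 and 17.3% for Upk3a. The level of Crym differed most between these groups of cells, with 20.6 CPM (16.9 to 24.9) in the latter and a log2 ratio of 4.78 (4.51 to 5.07). That of S100a14 differed least, at 61.2 CPM and a log2 ratio of 0.69 (0.51 to 0.88). Pubertal cell 98 alone held 50.0% of S100a14 and 67.1% of Itih2 among these Prlr cells, and pubertal cell 56 held 88.2% of Upk3a.

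Between Cited1 cells of the 2 stages, 4 of the 5 genes were higher at puberty. As stage and Cited1 both entered the choice of the genes, this count is a description only. Itih2 was detected in 6 of 32 adult Cited1 cells (18.8%, 7.21 to 36.4%) at 36.6 CPM, and the log2 ratio of puberty over adult was 3.75 (3.48 to 4.02). Upk3a, seen in 3 adult Cited1 cells, had a log2 ratio of 2.57 (2.45 to 2.69), and 97.3% of its adult level here came from cell 19. Crym was detected in 11 of 32 (34.4%) at 102 CPM, with a log2 ratio of 2.47 (2.31 to 2.64). S100a14 was detected in 2 of 32 (6.25%) at 1.88 CPM, with a log2 ratio of 5.72 (4.59 to 7.17). Capsl was detected in 23 of 32 (71.9%, 53.3 to 86.3%) at 677 CPM (649 to 706), above its pubertal level of 457 CPM, with a log2 ratio of -0.57 (-0.64 to -0.49). Against all adult Cited1 cells the markers of the set were lower in the pubertal Cited1 cells. Their log2 ratios were -0.37 for Cited1, -0.53 for Prlr and -1.32 for Prom1 (-1.47 to -1.16). Prom1 changed sign with the adult range. It stood at 3.96 (3.07 to 5.02) against Cited1 cells 48 to 188 and at -2.59 against the other adult Cited1 cells. Prlr stood at -0.07 and -1.01 and Cited1 at -0.48 and -0.19 in the same order. Of the 7593 genes that reached 20 CPM in either group 28.5% were at least 2-fold higher in the pubertal Cited1 cells and 21.4% at least 2-fold lower.

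The adult ranges differed among Cited1 cells as well. Crym was detected in 9 of the 13 Cited1 cells outside the range 48 to 188 (69.2%, 38.6 to 90.9%), a share that overlapped that of the pubertal Cited1 cells, and in 2 of the 19 within it (10.5%, 1.30 to 33.1%). Its level was 215 CPM and 25.3 CPM. The log2 ratio of the pubertal Cited1 cells was 1.40 for Crym against the former (1.23 to 1.58) and 4.49 against the latter (4.08 to 4.93). Capsl was detected in all 13 and in 10 of the 19 (52.6%), at 1258 CPM and 279 CPM, and its log2 ratio changed sign, from -1.46 (-1.54 to -1.38) to 0.71 (0.58 to 0.84). Upk3a was at 449 CPM in the 13 cells, all of its thinned reads there coming from cell 19, and at 5.26 CPM in the 19, with log2 ratios of 1.29 (1.17 to 1.41) and 7.71 (6.83 to 8.77). Without cell 19 the first of these was at least 8.78. Itih2 was detected in 2 of 13 cells at 42.3 CPM, of which cell 208 held 97.5%, and in 4 of 19 at 32.6 CPM. Without cell 208 its level in the other adult Cited1 cells was 1.67 CPM, on 2 reads. S100a14 had no read in the 13 cells and was seen in 2 of the 19.

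The 5 genes differed in how their levels went with reads of basal genes in Cited1 cells. Of the 89 pubertal Cited1 cells, 23 also had Krt5, Myh11 or Trp63, the basal markers, at 50 CPM or more. Upk3a stood at 1108 CPM in these 23 and 1097 CPM in the other 66, and S100a14 at 112 CPM and 94.4 CPM. Crym was lower in the 23 cells, at 269.6 CPM against 671 CPM, as were Capsl, at 198 CPM against 547 CPM, and Itih2, at 310.0 CPM against 554 CPM. In the 26 pubertal cells with Prlr and a basal marker but without Cited1, Capsl was at 1.15 CPM (0.238 to 3.37) while Itih2 was at 52.3 CPM (43.9 to 61.9). Of the adult Cited1 cells 16 of 32 had a basal marker. Capsl stood at 181 CPM in these and 1173 CPM in the other 16, and Crym at 63.8 CPM and 141 CPM. Upk3a stood at 6.25 CPM and 365 CPM, with all thinned reads of the latter from cell 19. Itih2 went the other way, at 58.1 CPM and 15.0 CPM, and cell 208 held 59.6% of the former. S100a14 stood at 3.75 CPM with a basal marker and had no read without. Whether reads of another cell contributed was not tested.

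The 5 genes were found together in the same pubertal cells. Of the 74 pubertal cells with 3 or more of them, 24 had all 5 and 29 had 4. All 74 lay in the set, 52.1% of its 142 cells (43.6 to 60.6%). Of the 89 Cited1 cells 68 had 3 or more (76.4%, 66.2 to 84.8%), against 6 of 52 Prlr cells without Cited1 (11.5%, 4.35 to 23.4%) and 0 of 29 cells outside the set. In the adult 5 of 89 set cells had 3 genes (5.62%, 1.85 to 12.6%) and none had more. These were adult cells 2, 19, 119, 189 and 208. Of them 4 had a basal marker at 50 CPM or more, beside 114 of all 152 adult cells. Myh11 stood at 9380.5 CPM in cell 2, 1014 CPM in cell 119, 334 CPM in cell 189 and 1380 CPM in cell 208. Cell 19 had no read of it. Of the 74 pubertal cells with 3 or more genes 20 had a basal marker. The most frequent adult combination was Capsl alone, in 40 cells, followed by Capsl with Crym in 9 and Capsl with Itih2 in 9, whereas Capsl alone was found in 9 pubertal cells. All 5 genes were chosen by their levels at puberty and in cells with Prlr, Cited1 or Prom1. Their joint detection in such cells and the difference in these counts between stages are therefore not independent of that choice.

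**Figure D3:**
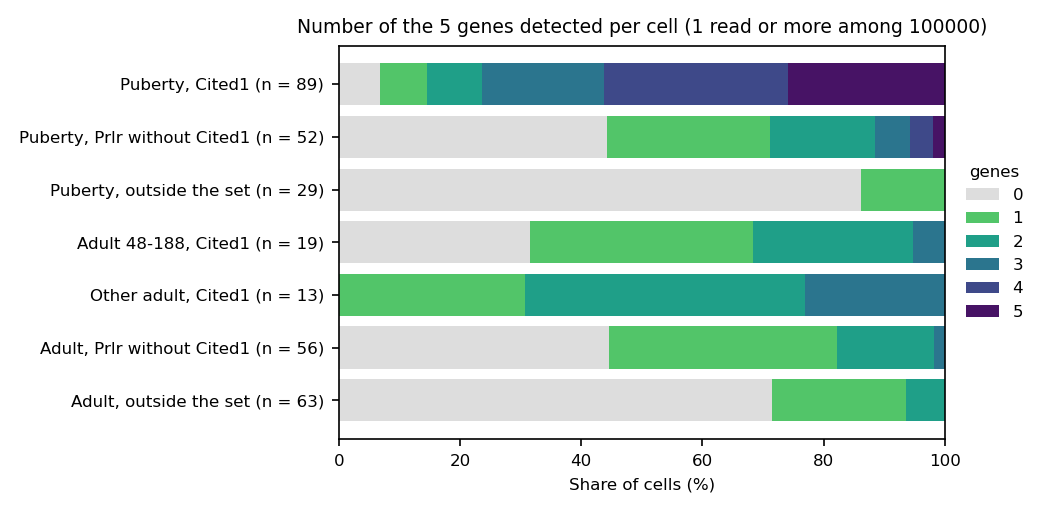
Share of cells in which 0 to 5 of the genes were detected at 1 read or more among 100000, by stage and by Cited1 or Prlr at 50 CPM or more. Of the pubertal Cited1 cells 76.4% had 3 or more genes, while no adult cell had more than 3.

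Across the 171 pubertal cells Pearson correlations of log2(CPM + 1), unthinned, between pairs of the 5 genes ran from 0.29 (S100a14 with Capsl) to 0.57 (Itih2 with Crym). Itih2 and Crym were detected together in 54 cells, 77.1% of the Itih2 cells and 73.0% of the Crym cells. Crym and Upk3a shared 51 cells, 68.9% of the Crym cells and 79.7% of the Upk3a cells. Within the 89 pubertal Cited1 cells the correlations were smaller, from 0.02 (S100a14 with Capsl) to 0.40 (Crym with S100a14). In the 152 adult cells they ran from -0.10 to 0.43, the highest being that of Crym with Upk3a, which were detected together in adult cells 19 and 119 alone. All values of 1 cell share its library and depth, and with log2 read pairs the 5 genes correlated by -0.09 to 0.06 over the pubertal cells. With the number of genes detected in a cell they correlated by 0.10 for Capsl, 0.18 for Upk3a, 0.26 for Crym, 0.27 for Itih2 and 0.35 for S100a14.

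The pubertal cells with 3 or more of the genes had a luminal marker profile. Krt8 and Krt18, the luminal keratins, reached 50 CPM in all 74. Prlr did so in 73 cells (98.6%), Cited1 in 68 (91.9%) and Areg, which encodes the growth factor amphiregulin, in 66 (89.2%). Foxa1, a transcription factor that opens sites for the estrogen receptor, did so in 39 (52.7%), Pgr, the progesterone receptor, in 22 (29.7%), and Esr1, the estrogen receptor, in 17 (23.0%). In the 55 pubertal cells with none of the genes the same shares were 61.8% for Krt8, 52.7% for Prlr, 10.9% for Cited1, 21.8% for Areg, 5.45% for Foxa1, 9.09% for Pgr and 3.64% for Esr1. Basal Krt14 reached 50 CPM in 24.3% of the cells with 3 or more genes and 45.5% of those with none, and Trp63, a basal transcription factor, in 9.46% and 29.1%. Elf5 did so in 0 of 74 and 4 of 55 cells. The cells with 3 or more genes had fewer read pairs, a median of 284742 against 439031, but more genes detected after thinning, a median of 3114.5 against 2529.

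**Figure D4:**
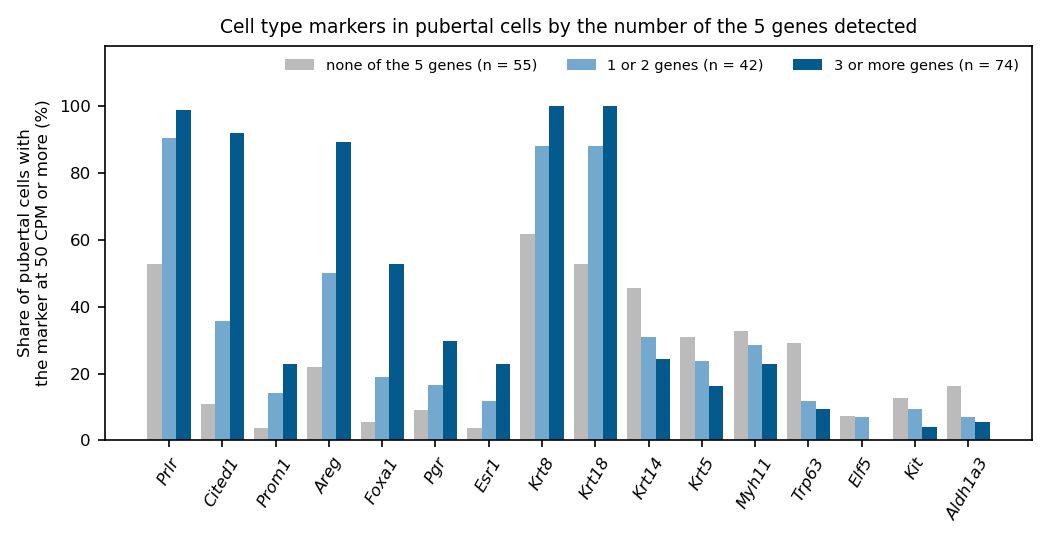
Share of pubertal cells with each marker at 50 CPM or more, for cells with none, 1 or 2, or 3 or more of the 5 genes detected. Prlr, Cited1, Prom1, Areg, Foxa1, Pgr, Esr1, Krt8 and Krt18 are more frequent in cells with 3 or more genes than in cells with none, and Krt14, Krt5, Myh11, Trp63, Elf5, Kit and Aldh1a3 less frequent.

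Levels of the marker lists are given as a description, since the split rests on genes chosen with Prlr, Cited1 and Prom1. Comparing pubertal cells with 3 or more of the genes with those that had none, 24.7% of the 7893 genes that reached 20 CPM were at least 2-fold higher and 25.4% at least 2-fold lower, with a median log2 ratio of 0.05. Of 18 mature luminal genes at that level (of 22 listed, with Prlr, Cited1 and Prom1 among them) 14 were at least 2-fold higher and 0 lower, with a median log2 ratio of 2.24. Among them Fgb, the fibrinogen beta chain, stood at 1802 CPM against 20.4 CPM. Of 14 basal genes 13 were at least 2-fold lower, with a median of -1.75. Of 12 luminal progenitor genes 11 were lower and 1, Ehf, was higher, with a median of -3.75. Lactoferrin, Ltf, stood at 6.08 CPM against 559.6 CPM and the milk protein gene Csn3 at 231 CPM against 4299.8 CPM. Of 5 fibroblast genes at that level 5 were lower, with a median of -5.21, and of 5 immune genes none reached 20 CPM.

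Between the stages the mature luminal list as a whole did not move as Itih2, Crym, Upk3a and S100a14 did. Those genes were chosen for being read as high at puberty, so this contrast is a description only. Of 18 mature luminal genes 3 were at least 2-fold higher at puberty and 1 was lower, beside 20.2% and 14.8% of all genes. Their median log2 ratio was -0.03. Between the Cited1 cells of both stages 3 were higher and 5 lower, beside 28.5% and 21.4% of all genes, with a median of -0.46. Prlr itself had a log2 ratio of -0.23 (-0.25 to -0.21) over all cells, Prom1 of -0.07 and Cited1 of 0.94 (0.89 to 0.99). In the same order, these ratios were 0.53, 2.79 and 1.07 against adult cells 48 to 188. They were -1.21, -1.68 and 0.66 against the other adult cells. Against the other adult cells 9 of these 18 genes were at least 2-fold lower at puberty and 1 was higher, beside 20.6% and 28.7% of all genes. Against adult cells 48 to 188, 8 were higher and 1 lower, beside 26.2% and 16.1%. Of 14 estrogen response genes 10 reached 20 CPM, of which 2 were at least 2-fold higher at puberty and 1 lower, with a median log2 ratio of 0.36, shares close to the 20.2% and 14.8% of all genes. Against adult cells 48 to 188, 5 of 11 estrogen response genes were higher and 2 lower, beside 26.2% and 16.1%, with a median of 0.72. Against the other adult cells 0 of 10 were higher and 3 lower, beside 28.7% and 20.6%, with a median of -0.20. Other cell types' markers moved with stage too. Basal genes were at least 2-fold lower at puberty in 10 of 14, beside 14.8% of all genes. Their median was -1.36 (-1.52 and -0.54 against the adult ranges in the same order). Luminal progenitor genes were lower in 6 of 11, beside the same 14.8%, with a median of -1.03 (-1.27 and 0.03). Fibroblast genes were higher in 4 of 5, beside 20.2% of all genes, with a median of 1.64 (2.44 and 0.45). The part of these differences in the stage ratios of the 5 genes was not tested.

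Most relatives of the 5 genes had few or no reads. Of the other uroplakins, Upk2 stood at 12.7 CPM at puberty and 11.6 CPM in the adult, Upk1a at 0.351 CPM and 0.0658 CPM, Upk1b was seen in 1 pubertal cell, and Upk3b and Upk3bl had no thinned read in either stage. In the cells with 3 or more of the 5 genes Upk2 reached 25.1 CPM, beside 1399.7 CPM for Upk3a, and Upk2 had no thinned read in the cells with none. Of the other inter-alpha-trypsin inhibitor heavy chains, Itih5 was present in both stages, at 121 CPM and 98.5 CPM, and Itih1, Itih3 and Itih4 stayed under 1 CPM. Ambp, which encodes the light chain bikunin, was at 0.234 CPM at puberty and had no adult read. Tnfaip6, which encodes the protein that transfers heavy chains onto hyaluronan, stood at 168 CPM and 142 CPM, but at 1.76 CPM in the cells with 3 or more of the 5 genes and 501 CPM in those with none. Has2, a hyaluronan synthase, stood at 33.1 CPM and 19.8 CPM in those cells and Cd44, a hyaluronan receptor, at 248 CPM and 524 CPM. Of the 15 hyaluronan and heavy chain genes other than Itih2, 8 reached 20 CPM in a stage, of which 2 were at least 2-fold higher at puberty and 1 lower, with a median log2 ratio of 0.32, beside 20.2% and 14.8% of all genes. Against adult cells 48 to 188, 5 of 8 were higher and 0 lower, beside 26.2% and 16.1% of all genes, with a median of 1.37. Against the other adult cells 2 were higher and 3 lower, beside 28.7% and 20.6%, with a median of -0.40. Between Cited1 cells 4 of 6 were higher and 1 lower, beside 28.5% and 21.4%, with a median of 1.94.

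Around Crym, the thyroid hormone receptors were low. Thra stood at 6.61 CPM at puberty and 6.18 CPM in the adult, Thrb at 23.5 CPM and 31.2 CPM. The deiodinases Dio2 and Dio3 had no thinned read. Of 16 thyroid hormone genes other than Crym 6 reached 20 CPM, of which 1 was at least 2-fold higher at puberty and 3 were lower, with a median log2 ratio of -0.94, beside 20.2% and 14.8% of all genes. The median was -0.67 against adult cells 48 to 188 and -0.97 against the other adult cells. Klf9, a transcription factor that thyroid hormone induces, stood at 54.3 CPM at puberty and 149 CPM in the adult.

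In both stages S100a14 was less abundant than the S100 genes whose levels follow. S100a6 stood at 2397 CPM at puberty and 1310.4 CPM in the adult, S100a10 at 877 CPM and 973 CPM, and S100a1 at 318 CPM and 325 CPM. S100a16 stood at 229 CPM and 253 CPM. Of 16 S100 genes other than S100a14 7 reached 20 CPM, of which 1, S100pbp, which encodes a binding partner of S100P rather than a family member, was at least 2-fold higher at puberty and 0 were lower, with a median log2 ratio of -0.02, beside 20.2% and 14.8% of all genes. The median was 0.35 against adult cells 48 to 188 and -0.18 against the other adult cells. Caps2, the listed relative of Capsl, had no thinned read in either stage.

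The genes whose levels over the 171 pubertal cells were most like those of the 5 were taken from 8632 genes detected in at least 10% of pubertal cells, 4 for each gene by Pearson correlation of log2(CPM + 1). AW112010 was among the 4 for all 5 genes, with r from 0.46 (S100a14) to 0.61 (Capsl). Wfdc2, a secreted protein with a whey acidic protein domain, was among them for Itih2 (r = 0.59), Upk3a (r = 0.50) and Capsl (r = 0.62). Itih2 was also close to Ly6d (r = 0.57) and Fam25c (r = 0.57), and Crym to the cytokine gene Il33 (r = 0.59), Tlcd4 (r = 0.58) and Gm20016 (r = 0.57). Upk3a was close to Fgb (r = 0.54) and Areg (r = 0.51), and Capsl to Cystm1 (r = 0.55) and Tlcd4 (r = 0.54). S100a14 stood apart, with the signaling ligand gene Wnt5a (r = 0.48), S100a6 (r = 0.47) and Tspan1 (r = 0.46). Within the 89 pubertal Cited1 cells r was smaller for all of these pairs except S100a14 with Wnt5a (0.49). For AW112010 it ran there from 0.27 (Upk3a) to 0.33 (Itih2). It was 0.19 for Upk3a with Wfdc2 and 0.13 for Capsl with Tlcd4. With Cited1, which the choice of the genes used, r was 0.69 for Crym, 0.64 for Upk3a, 0.60 for Capsl, 0.55 for Itih2 and 0.44 for S100a14.

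In the adult Upk3a was detected in 5 cells, S100a14 in 10, Crym in 13 and Itih2 in 14, which is few for a correlation over 152 cells, and their adult r with these genes lay between -0.18 and 0.39. Capsl, detected in 67 adult cells, had an adult r of 0.68 with Tlcd4, 0.43 with AW112010, 0.41 with Wfdc2 and 0.13 with Cystm1. Among these genes Il33 had the largest stage difference, with 1072 CPM at puberty against 40.6 CPM in adult cells, a log2 ratio of 4.72 (5.76 against adult cells 48 to 188 and 3.57 against the others). Gm20016 had a log2 ratio of 2.91 (3.88 and 1.80), Fgb of 2.52 (4.39 and 1.07) and Wnt5a of 2.00 (2.15 and 1.70). The 4 genes most like Itih2 over pubertal cells differed less between stages than its log2 ratio of 5.00. Itih2 was chosen for being read as high at puberty and these 4 only by correlation, so this contrast is a description only. Over all adult cells the log2 ratio was 0.66 for Wfdc2, 1.61 for AW112010, 0.58 for Ly6d and 1.57 for Fam25c.

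Over the pubertal cells in order of title number, the shares with 3 or more of the genes among set cells were 25 of 59 (42.4%, 29.6 to 55.9%) for cells 1 to 74, 35 of 53 (66.0%, 51.7 to 78.5%) for cells 75 to 148 and 14 of 30 (46.7%, 28.3 to 65.7%) for cells 149 to 221. All 5 genes were detected in each of these ranges. Upk3a varied most among them, at 565 CPM, 1145 CPM and 453 CPM in the set cells, while Itih2 stood at 306 CPM, 355 CPM and 417 CPM.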

How the data were processed

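The authors aligned read pairs to mm10 with Subread and deposited raw counts per gene, assigned by featureCounts with RefSeq annotation built into Rsubread, for each cell. The strand setting and versions are not given in the sources used here, and no molecular identifiers were used. With the filter that the methods state, 1904 identifiers without a current symbol (1.84% of pairs), 15 mitochondrial genes and 121 genes of ribosomal proteins were removed, and 323 of 444 cells remained, fewer than the study shows for these stages, for a reason not known here. No cells had identical counts. No doublet caller was run; the methods describe viewing captured cells under a microscope. Counts were thinned with seed 1 to 100000 pairs per cell. Log2 ratios used no prior, and a sum of 0 was set to 3 counts over the group, giving a bound. Lists counted genes at 20 CPM or more in either group that differed 2-fold. The 5 genes and all lists were chosen with earlier results of these data known. Named genes were the 5, genes defining a list or related to a member, and the 4 most alike per gene. The ratio calculation was tested on simulated data. Alternatives changed scaling, filters, set definition, detection level and cells included. Tools were Python 3.11.15, numpy 2.4.6, scipy 1.17.1, pandas 2.3.3, matplotlib 3.10.9 and edgeR 4.0.16 in R 4.3.3 for TMM scaling factors. Promoter windows are RefSeq, GRCm38.p6.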

Additional observations from a re-analysis of the deposited data

Results flagged for a closer look

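Reads of the 5 genes were also present in the cells that failed the coverage filter and entered no comparison. The 50 pubertal cells left out held 120 reads of Itih2 in 8 cells, 74 of Crym in 7, 76 of Upk3a in 4, 9 of S100a14 in 1 and 68 of Capsl in 2. The 71 adult cells left out held 562 reads of Capsl in 19 cells and 7 of Itih2 in 4. Each of these sums was above the 3 counts that a count of 0 allows. In the same adult cells Crym had 1 read, and Upk3a and S100a14 had none. Per read pair, Capsl stood at 231 CPM in the adult cells left out and 29.0 CPM in the pubertal cells left out.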

How the results depend on the processing

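No paired analysis was possible because the numbers shared by the titles of the stages only number cells, and no test was made. With 1 sample per stage, differences between stages, animals and capture runs cannot be told apart.

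The median log2 ratio of the 5 genes for puberty over adult, 3.79, was 2.27 against the other adult cells and 5.57 against adult cells 48 to 188, with 3.56 at 200000 read pairs and 2500 genes, 4.30 without the highest cell of each gene and 3.48 without pubertal cells 75 to 148. Without its highest cells Upk3a went from 4.00 to 9.52. Capsl turned from -0.22 to 1.11 against adult cells 48 to 188. Without the highest adult cell of each gene, added after seeing the data, the median was 4.49 against all adult cells, 6.29 against cells 48 to 188 and 6.06 against the others, and Capsl stood at 1.37 against cells 48 to 188. Itih2, Crym, Upk3a and S100a14 were higher at puberty under all 13 alternatives. Those that left out only the highest adult cell of each gene could not have lowered a ratio. The genes had also been chosen for being read as high at puberty. The median for the set over other pubertal cells, 8.39, is a bound set by depth and the number of cells outside. It was 10.69 for unthinned counts, 8.33 with TMM, 8.10 at 200000 read pairs and 2500 genes, 8.49 with no minimum of genes and 8.23 without the highest cells. Leaving out pubertal cells 1 to 74, 75 to 148 or 149 to 221 gave 8.11, 7.63 or 7.70. Set thresholds of 10 and 200 CPM gave 7.92 and 9.35, and sets by Prlr, Cited1 or Prom1 alone 3.86, 2.83 and 0.79. The share of pubertal set cells with 3 or more genes, 52.1%, was 76.4% for Cited1 alone, 68.0% for Prom1 alone and 33.1% with detection at 100 CPM, where the adult share went from 5.62% to 1.12%.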

Other observations

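The genes least like the 5 over the 171 pubertal cells, chosen after their values were seen, were led by Igfbp5, a secreted binding protein of insulin-like growth factors, with r = -0.49 between its log2(CPM + 1) and the number of the 5 genes detected in a cell. Its level was 499 CPM in the cells with 3 or more of the genes and 3731 CPM in those with none. Timp3, an inhibitor of matrix metalloproteinases, stood at 49.1 CPM and 907 CPM, and Col4a1, a basement membrane collagen, at 192 CPM and 1024 CPM.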
